A study of Mus musculus with 9 samples.

Results

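The keratins of simple epithelium and the membrane mucins were examined in tumors grown from the mouse line KLN205, derived from a squamous carcinoma of the lung, with and without knockdown of *Tmprss11b*, which encodes a transmembrane serine protease. The 8 genes were taken by symbol from the 19481 genes of the count table: the keratins *Krt7*, *Krt8*, *Krt18*, *Krt19*, *Krt20* and *Krt23* and the mucins *Muc1* and *Muc4*. *Muc1* and *Krt19* were selected on measured values, because they were higher in the sh2 tumors of these same samples, so their differences are given as a description with no test.

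Cells carrying a doxycycline-inducible shRNA were injected subcutaneously into the flank of young adult female DBA/2 mice, which are immunocompetent and syngeneic to the line. The 3 groups were sh Control (a scrambled shRNA), sh2 Tmprss11b and sh3 Tmprss11b (separate shRNAs against *Tmprss11b*), with 3 tumors each, labelled as biological replicates. Mice of all groups, controls included, drank doxycycline from the time the mean tumor volume reached 100 mm3, and tumors were resected on day 50. RNA was taken from pieces of whole tumor, so carcinoma and host mouse cells were read together, and fewer epithelial cells cannot be told apart from less RNA per epithelial cell.

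Keratins are the intermediate filament proteins of epithelial cells, and each filament pairs a type I with a type II chain. *Krt8* (type II) and *Krt18* (type I) form the primary pair of simple, single-layered epithelium, and *Krt7* and *Krt19* are added in ducts and glands, whereas stratified epithelium and squamous carcinoma use pairs such as *Krt5* with *Krt14*. Membrane mucins are long, heavily O-glycosylated proteins anchored in the apical membrane, where they form a barrier and, through their cytoplasmic tails, take part in signalling.

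The genes lie in 2 keratin clusters and at 2 single sites of the mouse genome (mm10, GENCODE M21). The type II genes *Krt7* (chr15:101411043-101430313, + strand) and *Krt8* (chr15:101996698-102004482, − strand) share a cluster with the type I gene *Krt18* (chr15:102028180-102032027, + strand), which is read away from *Krt8* across a gap of 23.7 kb. The other type I genes are all on the − strand of chromosome 11: *Krt20* (chr11:99428403-99438150), *Krt23* (chr11:99477974-99493137) and *Krt19* (chr11:100140810-100148665). *Muc1* covers 4.33 kb (chr3:89229057-89233381, + strand) and *Muc4* covers 46.5 kb (chr16:32735886-32782391, + strand). A processed pseudogene, Krt8-ps (chr7:23357125-23358069), resembles *Krt8* and was not in the count table, so how reads shared by the 2 were counted was not given in the sources used here.

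The 250 bases before the start that RefSeq gives are shown for the gene with the largest difference between groups, *Muc1* (chr3:89228806-89229055, + strand), for the partners *Krt8* (chr15:102004343-102004592, − strand) and *Krt18* (chr15:102027966-102028215, + strand), and for *Krt7* (chr15:101412153-101412402, + strand), whose level followed that of *Krt8* most closely among the 8 genes. RefSeq and GENCODE place some starts differently: the window of *Krt7* lies inside the span given above, and those of *Krt8* and *Krt18* overlap the first bases of theirs. The sequences are from RefSeq on GRCm38.p6, the same assembly as mm10, written 5′ to 3′ along the gene, and 7 of the 8 genes were matched in that table. Capitals mark 5 motifs searched on both strands: TATAAA (the TATA box), GGGCGG (bound by Sp1), CACCTG (an E-box bound by repressors of the Zeb and Snail families), GGAAG (the core bound by ETS factors) and TGANTCA (bound by AP-1).
Muc1: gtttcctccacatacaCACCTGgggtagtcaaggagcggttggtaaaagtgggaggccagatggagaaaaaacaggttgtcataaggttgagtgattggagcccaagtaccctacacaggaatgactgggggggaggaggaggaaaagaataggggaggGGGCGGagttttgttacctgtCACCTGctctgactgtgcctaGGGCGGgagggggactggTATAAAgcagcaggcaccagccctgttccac
Krt8: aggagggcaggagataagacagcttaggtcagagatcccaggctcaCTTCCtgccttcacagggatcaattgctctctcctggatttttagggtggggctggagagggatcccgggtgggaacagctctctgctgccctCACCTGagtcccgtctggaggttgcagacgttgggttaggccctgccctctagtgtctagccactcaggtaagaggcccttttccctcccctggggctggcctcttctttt
Krt18: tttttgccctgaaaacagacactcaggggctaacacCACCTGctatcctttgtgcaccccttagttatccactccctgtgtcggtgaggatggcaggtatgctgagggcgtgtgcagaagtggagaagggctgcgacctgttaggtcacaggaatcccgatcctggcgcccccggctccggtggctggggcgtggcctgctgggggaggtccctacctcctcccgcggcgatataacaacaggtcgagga
Krt7: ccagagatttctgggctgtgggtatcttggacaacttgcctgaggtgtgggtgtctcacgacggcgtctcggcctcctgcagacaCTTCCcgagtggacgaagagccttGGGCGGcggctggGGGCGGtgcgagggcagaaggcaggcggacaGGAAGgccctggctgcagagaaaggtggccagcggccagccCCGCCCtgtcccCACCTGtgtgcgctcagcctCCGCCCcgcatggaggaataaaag
CACCTG was found before 5 of the 7 matched genes, 2 times before *Muc1* and 1 time each before *Krt7*, *Krt8*, *Krt18* and *Krt23*, and in 17.2% of all 32851 promoter windows of this length. TATAAA was found before *Muc1*, *Krt20* and *Muc4* and in 12.4% of all windows. GGGCGG was found before *Muc1* and *Krt7* (32.7% of all windows), GGAAG before *Krt7*, *Krt8* and *Krt20* (64.1%) and TGANTCA before none (6.75%). No matches overlapped in the 4 sequences shown. These are matches of letters, and binding was not measured.

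Between 20653219 and 24047784 reads were counted on genes per tumor, so that 3 counts stand for 0.125 to 0.145 CPM (counts scaled by the total of their tumor). This floor, and every interval here, covers counting or between-tumor error only. The targeted gene, listed under its older symbol *Tmprss11bnl*, had 18, 51 and 42 counts in the control tumors and between 2 and 10 in each of the 6 knockdown tumors. Several tumors stood apart. Control replicate 1 was high in epidermal genes: the markers *Lor*, *Flg2*, *Krt77* and *Lce1a1* summed to 71.0 TPM (a level scaled by transcript length and library) there and to between 1.22 and 2.91 TPM in the other 8 tumors, and whether they were read from host skin or from the carcinoma was not tested. Mammary luminal markers, the milk casein genes among them, summed to 52.5 TPM in sh2 replicate 3 and to between 2.79 and 6.71 TPM elsewhere, and *Csn2* had 218 counts there against 8 or fewer. In sh2 replicate 2, *Cdx2*, an intestinal transcription factor, was at 96.7 TPM, against 4.95 to 5.75 TPM in the controls. The log2 CPM of sh3 replicate 1 correlated with those of the other sh3 tumors at 0.924 and 0.942 across genes, while the other pairs within groups were between 0.960 and 0.978.

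Simple keratins were among the most abundant mRNAs of these tumors, although the line is called squamous. By deposited TPM, *Krt7* ranked 57, *Krt19* 62, *Krt18* 70 and *Krt8* 90 by median among 19481 genes. The defining squamous genes were low: *Trp63*, the master regulator of squamous epithelium, was between 0.14 and 2.67 TPM, and *Krt5*, the basal keratin, was at or below 5.04 TPM in 8 tumors and at 93.1 TPM in control replicate 1, the tumor high in epidermal genes, which also had the highest *Trp63*. *Krt14*, the partner of *Krt5*, reached 17.4 to 547 TPM and *Krt6a*, a keratin of stressed epithelium, 48.3 to 304 TPM. *Sftpc*, *Sftpb* and *Nkx2-1*, markers of lung alveolar epithelium, were at or below 0.28 TPM in every tumor. The 5 lung epithelium genes measured, *Sftpd* and *Scgb1a1* among them, summed to 5.41 to 70.2 TPM.

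The median level over the 9 tumors was 1652 TPM for *Krt7*, 1580.4 TPM for *Krt19*, 1390.2 TPM for *Krt18* and 1103 TPM for *Krt8*. *Krt7* and *Krt19* did not differ beyond their spread, since *Krt7* was the higher in 5 of 9 tumors, and *Krt19* exceeded *Krt18* in 7 of 9. *Krt18* was above *Krt8* in all 9. *Muc1*, a membrane mucin of most glandular epithelia, followed at 148 TPM, below *Krt8* in all 9 tumors. The remaining 3 genes were far lower, with medians of 1.59 TPM for *Krt23*, 0.396 TPM for *Muc4* and 0.105 TPM for *Krt20*, and *Krt23* exceeded *Muc4* in 8 of 9 tumors and *Muc4* exceeded *Krt20* in 7 of 9.

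**Figure D1:**
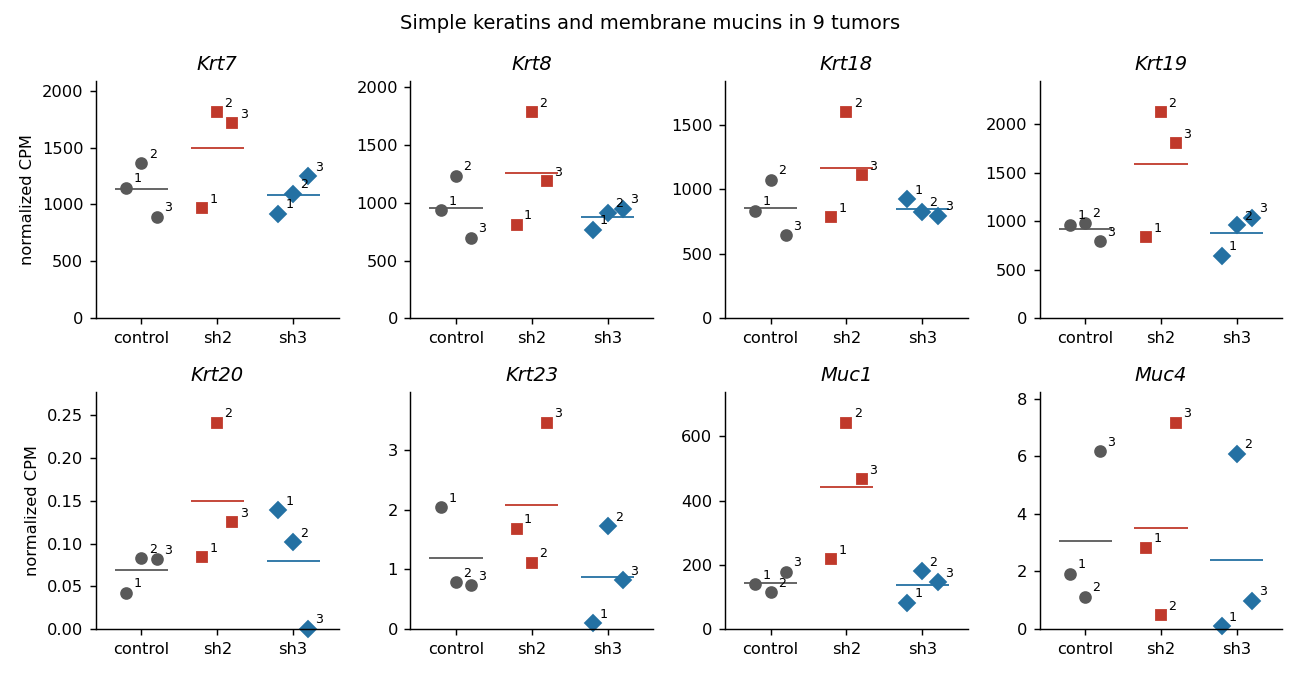
TMM-normalized CPM (linear axes starting at 0) of the 8 genes in each tumor of the sh Control (control), sh2 Tmprss11b (sh2) and sh3 Tmprss11b (sh3) groups. Points are tumors with their replicate numbers and lines are means of 3. For *Krt7*, *Krt18*, *Krt19* and *Muc1*, sh2 replicates 2 and 3 lie above every control and sh3 tumor, and sh2 replicate 1 does so for *Muc1* alone of these.

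*Krt8*, the type II chain that *Krt18* needs for a stable filament, had 937, 1234 and 697 CPM in control replicates 1 to 3, 809.9, 1788 and 1186 CPM in the sh2 tumors and 766, 913 and 948 CPM in the sh3 tumors. *Krt18* had 835, 1074 and 644 CPM in the controls, 782, 1599 and 1107 CPM with sh2 and 925, 824 and 796 CPM with sh3. For both genes sh2 replicate 2 was the highest tumor and control replicate 3 the lowest, and the groups overlapped. *Krt7*, the type II keratin of glandular and ductal cells, had 1147, 1365 and 893 CPM in the controls, 967, 1813 and 1713 CPM with sh2 and 918, 1096 and 1247 CPM with sh3. Its 2 highest tumors were sh2 replicates 2 and 3, and sh2 replicate 1 was within the control range.

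*Krt19*, a type I keratin that lacks the usual tail domain and marks ductal epithelium, had 965, 986 and 796 CPM in the controls, 838, 2126 and 1803 CPM with sh2 and 645, 961 and 1034 CPM with sh3. Sh2 replicates 2 and 3 were thus each above every other tumor, whereas sh2 replicate 1 lay between the lowest and the highest control. *Muc1* had 139.6, 114 and 179 CPM in the controls, 217, 643 and 467 CPM with sh2 and 81.1, 179.9 and 146 CPM with sh3. All 3 sh2 tumors were above all controls and above all sh3 tumors, but sh2 replicate 1 exceeded the highest control by far less than the other sh2 tumors did. *Muc1* was the only one of the 7 tested genes whose sh2 and control tumors did not overlap. Of all 14725 genes tested, 5.56% were higher in every sh2 tumor than in every control, and 4.62% were lower in every sh3 than in every sh2 tumor.

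*Krt20*, a type I keratin of intestinal epithelium and urothelium, had 1, 2 and 2 counts in the controls, 2, 5 and 3 counts with sh2 and 3, 2 and 0 counts with sh3. These are counts at or near the floor, and no fold change is given. *Krt23*, another type I keratin, had 48, 19 and 18 counts in the controls, 40, 23 and 83 counts with sh2 and 2, 34 and 19 counts with sh3. *Muc4*, a large membrane mucin that binds ErbB2, had 45, 27 and 151 counts in the controls, 67, 10 and 172 counts with sh2 and 2, 120 and 23 counts with sh3. *Krt23* and *Muc4* shared their highest tumor, sh2 replicate 3, and their lowest, sh3 replicate 1, but sh2 replicate 2, high in the abundant keratins and *Muc1*, was low in *Muc4*.

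The mean of the sh2 tumors was above that of the controls for all 7 tested genes, among them *Muc1* and *Krt19*, which were selected for this. The fitted difference (log2 fold change from edgeR on all 9 tumors) was 1.62 for *Muc1*, a 3.07-fold difference, between 442 ± 214 CPM (SD, n = 3) and 144 ± 32.7 CPM (SD, n = 3). For *Krt19* it was 0.79, between 1589 ± 670 CPM (SD, n = 3) and 916 ± 104 CPM (SD, n = 3). The other keratins were at 0.40 for *Krt7*, 0.40 for *Krt8*, 0.45 for *Krt18* and 0.81 for *Krt23*, and *Muc4* was at 0.19. Over all genes tested in this comparison, 0% passed a false discovery rate (FDR) of 0.05. The median log2 fold change over all of them was 0.01, and 51.8% were higher with sh2. No test of these genes is read from this comparison, which was the one that selected *Muc1* and *Krt19*. Without sh2 replicate 2 the values were 1.25 for *Muc1*, 0.53 for *Krt19*, 0.06 for *Krt8* and 0.15 for *Krt18*. Without sh2 replicate 3, the tumor with casein RNA, they were 1.58 for *Muc1*, 0.70 for *Krt19* and 0.25 for *Krt23*, while *Muc4* turned to −0.87.

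Scaled to *Epcam*, a surface protein of carcinoma cells that ranged from 621 to 1289.6 TPM, *Muc1* stood at 0.170, 0.131 and 0.254 in the controls, 0.289, 0.574 and 0.373 with sh2 and 0.0766, 0.239 and 0.172 with sh3. All sh2 tumors were above all others here too. That is a description, since *Muc1* was selected for its rise in these tumors and the ratio was chosen after seeing the data. *Krt19* per *Epcam* was 1.91, 1.86 and 1.85 in the controls and 1.82, 3.10 and 2.35 with sh2, whereas *Krt8* per *Epcam* was 1.41, 1.77 and 1.23 in the controls and 1.34, 1.98 and 1.18 with sh2. On this scale sh2 replicate 3 was above the controls for *Krt19* but below them for *Krt8*. With sh3, *Krt19* per *Epcam* was 0.994, 2.08 and 1.99, so that sh3 replicates 2 and 3 were above every control too. The sh2 difference in mean log2 TPM of *Krt19* went from 0.64 to 0.34 on this scale.

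**Figure D2:**
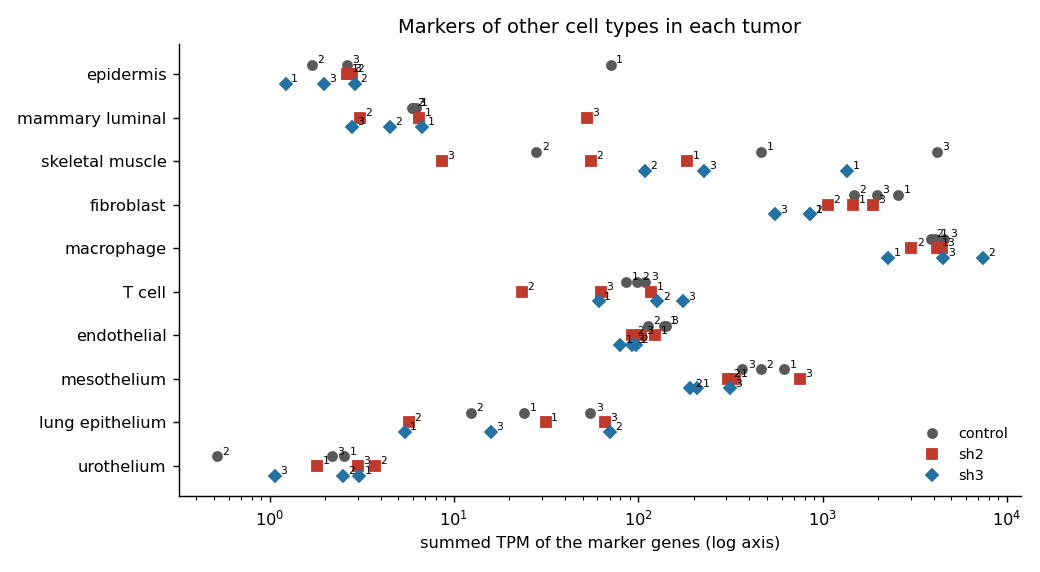
Summed TPM (log axis) of markers of 10 other cell types in each tumor, with points for tumors, replicate numbers beside them and groups by color. Control replicate 1 stands alone for epidermis at 71.0 TPM and sh2 replicate 3 for mammary luminal markers at 52.5 TPM, and skeletal muscle ranges from 8.62 TPM in sh2 replicate 3 to 4170.1 TPM in control replicate 3.

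Markers of other cells differed between the same tumors. T-cell markers (5 measured of 6) summed to 85.8 to 109 TPM in the controls, 23.3 to 118 TPM with sh2 and 61.0 to 175 TPM with sh3, and were lowest in sh2 replicate 2. Fibroblast markers (7 of 7) summed to 1472 to 2581.5 TPM, 1069.8 to 1873 TPM and 550.2 to 856 TPM in the 3 groups. Skeletal muscle markers (6 of 6) summed to 28.1 to 4170.1 TPM in the controls, 8.62 to 185 TPM with sh2 and 109 to 1355 TPM with sh3. Macrophage markers (6 of 7) ranged from 2269 to 7377 TPM, endothelial markers (5 of 5) from 79.5 to 141 TPM, mesothelial markers (6 of 6) from 192 to 755 TPM with *Upk3b*, *Lrrn4* and *Calb2* at or below 0.21 TPM, lung epithelium markers (5 of 7) from 5.41 to 70.2 TPM and urothelium markers (3 of 3) at or below 3.73 TPM. The casein genes *Csn1s1* and *Csn2* were at or near 0 in sh2 replicate 2, the tumor with the highest *Muc1*, *Krt8*, *Krt18* and *Krt19*. Mammary luminal markers as a list were highest in sh2 replicate 3, which had the next highest *Muc1* and *Krt19*. The part of any of these cells in the levels of *Muc1* and the keratins was not tested.

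The sh3 tumors carried a second shRNA against the same target, and here all 7 tested genes had a log2 fold change below 0. Their median was −0.09 beside 0.03 over all genes, of which 54.9% were above 0. *Muc1* was at 136 ± 50.2 CPM (SD, n = 3) and *Krt19* at 879.9 ± 207 CPM (SD, n = 3), with log2 fold changes against the controls of −0.09 and −0.06. *Krt8* was at 876 ± 96.8 CPM against 956 ± 269 CPM in the controls (SD, n = 3 each), a log2 fold change of −0.13 with a 95% interval from −0.80 to 0.55 (FDR = 0.955, edgeR quasi-likelihood test). *Krt18* differed by −0.01, with an interval from −0.62 to 0.61 (FDR = 0.998, edgeR), and *Krt7* by −0.06, with an interval from −0.66 to 0.53 (FDR = 0.974, edgeR). *Krt23* at −0.44 and *Muc4* at −0.37 had intervals from −2.35 to 1.47 and from −3.20 to 2.46 (FDR = 0.937 and 0.970, edgeR), which leave room for a change of several fold in either direction. None of the 5 genes tested in this comparison passed the threshold, and 0% of all genes did. Sh3 tumors and controls overlapped for all 7, where 5.44% of genes were lower and 6.78% higher in every sh3 tumor. The comparison shares its controls with the one that selected *Muc1* and *Krt19*. Without sh3 replicate 1, *Muc1* was at 0.18, *Krt19* at 0.12, *Krt23* at 0.09 and *Muc4* at 0.20 above the controls.

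Set directly against sh2, sh3 was lower for the 5 genes not selected in the sh2 tumors and for the selected *Muc1* and *Krt19*. Of all genes tested, 54.9% were higher. *Krt7*, *Krt8* and *Krt18* varied together across tumors, so their directions are not separate observations and the count is a description. The difference on the log2 scale was −1.71 for *Muc1* and −0.85 for *Krt19*, both given as a description since the sh2 tumors selected them. For the rest the differences were −0.46 for *Krt7* (SE 0.26, FDR = 0.696, edgeR), −0.53 for *Krt8* (SE 0.30, FDR = 0.696, edgeR), −0.45 for *Krt18* (SE 0.27, FDR = 0.701, edgeR), −1.25 for *Krt23* (SE 0.84, FDR = 0.722, edgeR) and −0.56 for *Muc4* (SE 1.25, FDR = 0.935, edgeR). The difference between the shRNAs thus passed the threshold for none of these 5 genes, nor for any other gene (0% of all tested). The 95% interval for *Krt8* ran from −1.21 to 0.15. In the 3 comparisons 518, 976 and 1057 genes had an unadjusted p under 0.05. DESeq2's Wald test called 2, 41 and 46 genes at the same FDR and edgeR's likelihood ratio test 0, 8 and 14.

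**Figure D3:**
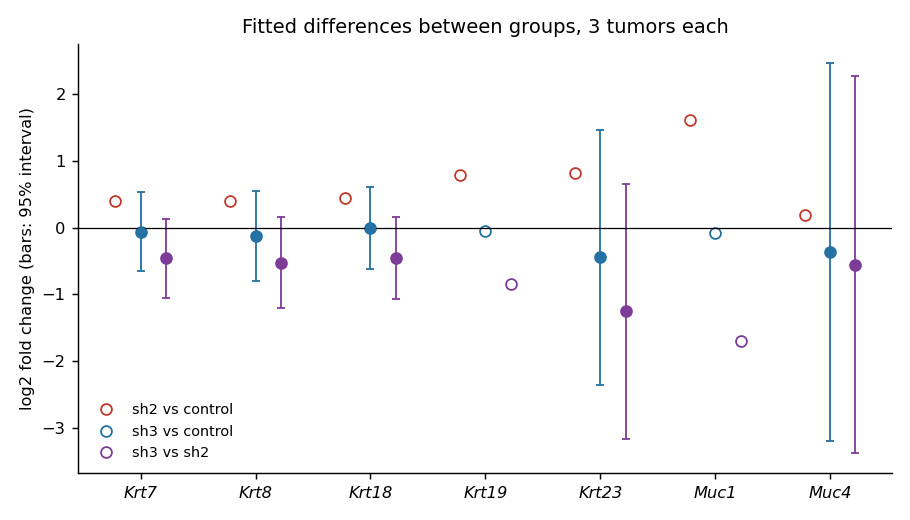
Log2 fold changes from edgeR for the 7 tested genes in 3 comparisons of 3 tumors against 3. Filled points carry 95% intervals and open points carry none. Open are all values of sh2 against control, the comparison in which *Muc1* and *Krt19* were selected, and the values of those genes elsewhere. *Muc1* is at 1.62 for sh2 against control and at −0.09 for sh3 against control, and all intervals drawn include 0.

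The keratin makeup of the tumors was next taken from TPM. The 6 simple keratins made up 83.2%, 91.3% and 92.9% of the summed TPM of simple and 12 stratified keratins in the controls, 93.4%, 96.8% and 96.0% in the sh2 tumors and 96.9%, 92.9% and 91.6% in the sh3 tumors. The lowest share was that of control replicate 1, whose stratified keratins summed to 1199 TPM against 159 to 679 TPM elsewhere. The mean share was 4.67 percentage points higher with sh3 than in the controls, and 1.70 points higher without control replicate 1. As a part of all mRNA, simple keratins made up 0.593%, 0.712% and 0.491% of TPM in the controls, 0.535%, 1.06% and 0.887% with sh2 and 0.501%, 0.460% and 0.553% with sh3. Simple keratins summed to 10597 and 8869 TPM in sh2 replicates 2 and 3 and to 4601 to 7121 TPM in the other 7 tumors, while stratified keratins in those 2 tumors, at 349 and 371 TPM, were within the range of the rest.

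**Figure D4:**
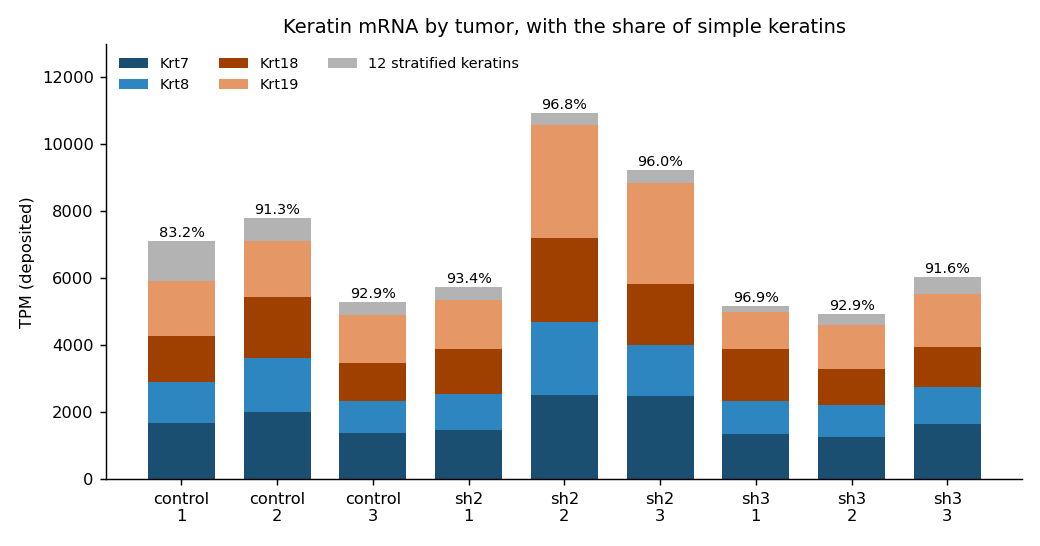
Stacked deposited TPM (linear axis from 0) of *Krt7*, *Krt8*, *Krt18*, *Krt19* and the sum of 12 stratified keratins in each tumor, with the percentage of simple keratins above the bar. Sh2 replicates 2 and 3 have the tallest bars, and control replicate 1 has the largest stratified part and the lowest share, 83.2%.

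The mRNAs of the abundant type II and type I simple keratins stayed near balance. The summed TPM of *Krt7* and *Krt8* was 0.793 to 1.04 times that of *Krt18* and *Krt19* over the 9 tumors. It was lowest in sh2 replicates 2 and 3, at 0.793 and 0.826. Sh2 replicate 1 was at 0.906, the controls at 0.956, 1.04 and 0.913 and the sh3 tumors at 0.888, 0.929 and 0.993. The ratio of *Krt8* to *Krt18* was 0.870, 0.891 and 0.839 in the controls, 0.804, 0.867 and 0.831 with sh2 and 0.642, 0.860 and 0.925 with sh3. Sh3 replicate 1 lay below the range of the other 8 tumors, 0.804 to 0.925. The mean ratio with sh3 was lower by −0.0578, which was not significant (exact permutation test, two-sided, p = 0.8, where 3 tumors against 3 allow no p below 0.1), and without sh3 replicate 1 it was 0.0254 above the controls. *Krt19* to *Krt18* varied more, from 0.711 in sh3 replicate 1 to 1.66 in sh2 replicate 3.

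All 6 pairs among *Krt7*, *Krt8*, *Krt18* and *Krt19* correlated positively across the 9 tumors, with r from 0.78 to 0.95. All 21 pairs of the 7 tested genes were compared in log2 CPM, and 18 correlated positively. The pairs are given as a description without p, since the genes were chosen with results of these tumors known and share libraries and tumor content. For *Krt7* and *Krt8*, Pearson's r was 0.94 and Spearman's rho 0.98, and r was 0.96 without the 2 tumors farthest from the median of *Krt7* and 0.92 with group means removed. For *Krt8* and *Krt18*, r was 0.93 and rho 0.77, and r was 0.74 without the 2 farthest tumors and 0.92 with group means removed. *Krt7* and *Krt19* had r = 0.95 and rho = 0.97, falling to r = 0.83 without the 2 farthest tumors, and *Krt8* and *Krt19* had r = 0.88 and rho = 0.93, falling to 0.76. For *Krt7* and *Krt18*, r fell from 0.85 to 0.61 without sh2 replicates 2 and 3. *Krt18* and *Krt19* had r = 0.78 and rho = 0.63, and without the same 2 tumors r was 0.11, so that their relation rested on those tumors.

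The relation of *Muc1* to *Krt19* also rested on sh2 replicates 2 and 3: r was 0.90 but rho 0.52, and without those 2 tumors r was 0.39 over 7 tumors. *Muc1* and *Krt7* went from r = 0.72 to −0.14 and *Muc1* and *Krt18* from 0.60 to −0.66 when the same tumors were left out. *Muc1* and *Muc4* went the other way, from 0.31 to 0.89. *Krt23* and *Muc4* had r = 0.77 and rho = 0.53, and r fell to 0.24 without sh2 replicate 3 and sh3 replicate 1, so that this relation too rested on 2 tumors.

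**Figure D5:**
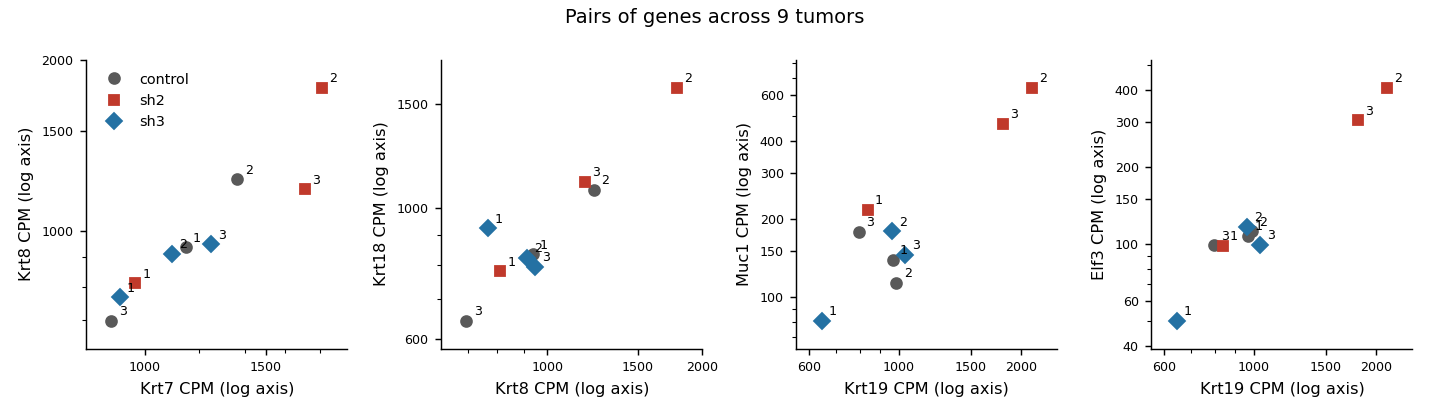
CPM of 4 pairs of genes over 9 tumors (log axes), with points for tumors, replicate numbers and group colors. *Krt7* with *Krt8* and *Krt8* with *Krt18* spread along a line, with sh3 replicate 1 off it for *Krt18*, while for *Krt19* with *Muc1* and with *Elf3* sh2 replicates 2 and 3 lie far from the other 7 tumors.

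Among 13604 other genes, the pattern of *Krt19* was most like that of *Elf3* (r = 0.98 over 9 tumors), an ETS factor of epithelial cells, followed by *Mal2*, *Fbxo34*, *Cldn23* and *1700017B05Rik* (r between 0.96 and 0.98). *Elf3* had 107, 112 and 98.7 CPM in the controls, 98.3, 407 and 304 CPM with sh2 and 50.1, 117 and 99.3 CPM with sh3. Sh2 replicates 2 and 3 were far above the rest and sh3 replicate 1 below it, the same tumors as for *Krt19*. *Mal2*, which carries proteins to the apical membrane, had 172 to 197 CPM in the controls and 518 and 397 CPM in sh2 replicates 2 and 3. The genes most like *Muc1* were *Slc37a1*, *Slc33a1*, *Cdkl3*, *Fbxo34* and *Plekha6* (r between 0.95 and 0.98), with *Elf3* ranked 6 and *Krt19* ranked 28. Those most like *Krt8* were *Klf10*, *Slc25a17*, *Krt7*, *Hpcal1* and *Krt18* (r between 0.93 and 0.94). *Epcam* ranked 851 for *Krt8* with r = 0.61 and 1792 for *Muc1* with r = 0.46. These are correlations across few tumors, with 2 tumors far from the rest.

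In the wider epithelial program, no gene of any list passed the threshold in either comparison with the controls. As background for the counts of every list below, 51.8% of all tested genes were higher with sh2 and 54.9% with sh3. Of 24 genes of epithelial junctions and identity, all tested, 22 were higher with sh2 and 15 with sh3, with median log2 fold changes of 0.36 and 0.10 beside 0.01 and 0.03 over all genes. Without sh2 replicate 2, 23 were higher with sh2 and the median was 0.22. Without sh3 replicate 1, 12 were higher with sh3 and 12 lower, and the median was 0.002. The highest mean log2 fold changes over both comparisons, by signed value, were those of *Prom1*, an apical membrane protein (1.28 with sh2 and −0.21 with sh3), and *Crb3*, an apical polarity protein (0.41 and 0.51). The lowest was that of *Cldn1*, a tight junction claudin (−1.39 and −0.92), which was also the farthest from 0. The sh3 value of *Prom1* turned to 0.23 without control replicate 3 and to 0.02 without sh3 replicate 2. Its sh2 value fell to 0.31 without sh2 replicate 2.

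Of 12 stratified keratins, 10 were tested, of which 9 were lower with sh2 and 8 with sh3, with medians of −1.77 and −1.56. Without control replicate 1, the tumor high in epidermal genes, 6 were lower with sh2 and 7 with sh3, with medians of −0.18 and −0.63. *Krt5* was at −3.52 and −7.51, *Krt6b* at −3.54 and −4.76, *Krt80* at −0.05 and −0.56, and *Krt4*, a keratin of oral and esophageal lining, at 0.05 and 1.72. The FDR was 0.753 or above for each of these (edgeR). For *Krt5* and *Krt6b* the sh2 direction turned without control replicate 1, to 2.31 and 0.53. Their sh3 values shrank to −1.69 and −0.71 without it. *Krt5* had 87.4 CPM in that control, 0.455 and 0.573 CPM in the other controls and 0.843, 5.02 and 1.88 CPM with sh2. *Krt4* had 131, 19 and 33 counts in the controls and 2, 496 and 6 with sh3, and its sh3 value was −3.83 without sh3 replicate 2. Its sh2 value was −1.85 without sh2 replicate 3.

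Of 14 other mucins, 8 were in the table and 3 were tested. *Muc13*, a membrane mucin of the intestine, was at 5.07 with sh2 and −0.71 with sh3, which was 1 tumor: sh2 replicate 2 had 65.0 TPM and every other tumor between 0.262 and 1.47 TPM. This was also the tumor with high *Cdx2*. *Muc20* was at 0.65 and 0.11 and the secreted mucin *Muc5b* at −1.25 and −0.30, both below 1.4 TPM in every tumor. *Muc20* turned to −1.36 without sh2 replicate 3 and to −2.76 without sh3 replicate 2. *Muc2*, *Muc5ac*, *Muc6* and *Muc19*, the other secreted mucins measured, were at or below 0.11 TPM. *Muc1* was thus the highest of the mucins measured in every tumor.

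Enzymes and sugar transporters of mucin O-glycosylation were tested for 22 of 24 genes, and 16 were higher with sh2 and 8 with sh3, with medians of 0.11 and −0.07. *Gcnt3*, which makes the branched core structures of mucin glycans, was at 0.58 and 1.44, *Galnt3*, which starts O-glycans, at 0.39 and 0.20, *Gcnt4* at −0.05 and −0.50 and *St6galnac2*, a sialyltransferase, at −0.18 and −0.41. Without sh2 replicate 2 the sh2 values of *St6galnac2* and *Gcnt4* turned to 0.22 and 0.08. *Gcnt3* was highest in sh3 replicate 1, at 45.9 TPM against 4.27 to 14.3 TPM elsewhere.

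Of 18 epithelial transcription factors, 16 were tested, with 8 higher with sh2 and 6 with sh3 and medians of 0.04 and −0.20. *Elf3* was at 1.35 with sh2 and −0.26 with sh3, and *Cdx2* at 2.95 and 0.16. Without sh2 replicate 2 their sh2 values fell to 0.92 and 0.95. *Trp63* was at −0.99 and −0.78 and *Grhl3*, a factor of epidermal barrier formation, at −0.40 and −0.84. *Ehf*, an ETS factor related to *Elf3*, was low in sh2 replicate 2 and sh3 replicate 1, at 15.2 and 8.54 TPM, and between 40.0 and 61.7 TPM in the others. Of the 9 genes for proteins that tie keratin filaments to cell junctions and to each other, 7 were higher with sh2 and 5 with sh3, with medians of 0.11 and 0.06. Without sh2 replicate 2, 4 were higher with sh2 and the median was −0.04. Without sh3 replicate 1, 2 were higher with sh3 and the median was −0.23. *Eppk1* was at 0.31 and 0.21, *Plec* at 0.20 and 0.16, *Ppl* at 0.47 and −0.42 and *Pkp1* at −0.27 and −0.78. With single tumors left out, *Plec* turned to −0.04 with sh2 without sh2 replicate 2 and to −0.45 with sh3 without sh3 replicate 1, *Eppk1* to −0.17 with sh3 without sh3 replicate 3, *Elf3* to 0.03 with sh3 without sh3 replicate 1 and *Trp63* to 0.01 with sh3 without control replicate 1.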

How the data were processed

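Total RNA of 9 tumors was sequenced from poly-A, strand-specific libraries. The authors checked reads with FastQC, aligned them with STAR 2.5.3a and counted them with featureCounts (build mm10, per the labels), and the raw counts and TPM they deposited for 19481 genes were used. The gene annotation, the strand setting and the handling of multi-mapped reads were not given in the sources used here. A further 9 columns of normalized values per tumor, and 10 columns of the authors' own fold changes and p-values, were not used.

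Counts were fitted in R 4.3.3 with edgeR 4.0.16 (filterByExpr, TMM, robust quasi-likelihood, 1 coefficient per group, all 9 tumors), which tested 14725 genes with Benjamini-Hochberg adjustment over all of them and an FDR threshold of 0.05. Log2 CPM used a prior count of 2. Genes were compared with each other only in TPM. The genes, lists and tests were chosen with earlier results of these data known. Named beside the 8 genes were the 2 tested genes with the highest and the 2 with the lowest signed mean log2 fold change of each epithelial list, and the 5 genes with the highest Pearson r with *Muc1*, *Krt8* and *Krt19* among those tested whose mean reached 1 CPM. *Ehf*, *Csn2* and other list genes named beyond this rule were picked after their values were seen. One gene that the rule names is not reported here.

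Alternatives were DESeq2 1.42.0 size factors and Wald test, edgeR's likelihood ratio test, no filter, a minimum of 10 counts per tumor, fits of the compared groups alone, a replicate block, each tumor left out, raw counts in place of TPM and fewer keratins in the share, and TPM or group-centred values for pairs. The ratio to *Epcam*, and leaving out each tumor for the genes of other lists, were chosen after seeing the data. The fits were tested on simulated counts. Tables and plots used Python 3.11.15, pandas 2.3.3, numpy 2.4.6, scipy 1.17.1 and matplotlib 3.10.9.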

Additional observations from a re-analysis of the deposited data

How the results depend on the processing

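The comparisons rest on 3 tumors a group. The number of genes past an FDR of 0.05 was 0 in each comparison with edgeR's quasi-likelihood test under every alternative in filter, scaling, samples or block. DESeq2's Wald test gave 2 with sh2 against control, 41 with sh3 against control and 46 with sh3 against sh2, and edgeR's likelihood ratio test gave 8 and 14 in the last 2. Among 330 alternative values of the log2 fold changes of the 7 genes, 317 kept their direction and side of the threshold or, for values given without a test, moved by less than the spread between tumors. With all tests counted, 1 of the 7 genes passed an FDR of 0.05 under an alternative, and none did in the main fit. The tested values that changed sign were small values of sh3 against control or *Muc4*: with the replicate block, *Krt18* was at 0.0352, and with each tumor left out in turn *Krt7* ranged from −0.222 to 0.0860, *Krt8* from −0.324 to 0.0944, *Krt18* from −0.185 to 0.191, *Krt23* from −1.37 to 0.17 and *Muc4* from −2.49 to 0.62, and *Muc4* from −2.68 to 0.48 for sh3 against sh2. The difference in the *Krt8* to *Krt18* ratio ranged from −0.116 to 0.0254 with each tumor left out, above 0 only without sh3 replicate 1. With group means removed, r of *Krt18* and *Krt23* went from 0.09 to −0.23. The cause of these changes was not tested.

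The labels number the tumors 1 to 3 in each group, without saying that a number marks a shared batch. Tumors with the same number deviated from their group means with correlations of −0.235 to 0.0863 across genes, so no pairing was used, and the count of genes past the threshold with the replicate block was 0 in each comparison. *Krt20* (0 to 5 counts) and, in single tumors, *Krt23* and *Muc4* (2 counts) are limited by depth.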
